A study of Mus musculus with 2 samples.

Results

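The genes described here are 37 mouse genes of glycolysis and of the pentose phosphate pathway, taken from a list of symbols and looked up by gene identifier among the 43346 Ensembl gene rows of the deposited tables. All 37 were found, 30 of them in glycolysis with its transporters and regulators, 3 in the oxidative arm of the pentose phosphate pathway and 4 in its non-oxidative arm. They fall into 22 steps, of which 10 can be served by more than 1 of the listed genes. The values come from total RNA-seq of G1E-ER4, an immortalized mouse erythroid line, labelled as strain C57BL/6J, male, postnatal and aged 0 day. G1E cells lack Gata1, the master transcription factor of red cell development, and the ER4 derivative carries GATA1 fused to the ligand-binding domain of the estrogen receptor, so that estradiol restores GATA1 activity and the cells mature. Both libraries come from cells given 10 nM 17beta-estradiol for 24 hours, and they are labelled as biological replicates 1 and 2 of this single group. Every sample shares the cell line and the estradiol, no untreated library is analysed here, and a single cell line stands in for erythroid cells. The comparisons are therefore between genes of the same step, between the pathway's arms and between the replicates, and they are given as values with no test, because an exact two-sided sign-flip test over 2 libraries cannot go below p = 0.5.

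Glycolysis splits glucose into pyruvate and yields ATP and NADH. It is the sole energy source of the mature red cell, which has no mitochondria. Red cells also divert a glycolytic intermediate through bisphosphoglycerate mutase to make bisphosphoglycerate, which lowers the oxygen affinity of haemoglobin. The oxidative arm of the pentose phosphate pathway makes the NADPH that keeps glutathione reduced, and the non-oxidative arm interconverts sugar phosphates and supplies ribose phosphate for nucleotides. Many steps have isoenzymes from separate genes that differ in tissue and in regulation, and inherited defects of several of them cause haemolytic anaemia.

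The libraries held 62080996 and 41051158 expected counts, of which the 37 genes took 0.678% and 0.693%. Erythroid marker genes fixed for this check were all present, 12 of 12 at 1 TPM or more in both libraries, with a summed 2734 TPM in replicate 1 and 3724 TPM in replicate 2. None of the 8 myeloid, 6 skeletal muscle, 6 neuron or 6 hepatocyte markers reached that level in both. TPM is a read count divided by transcript length and scaled to the same total in each library, so it lets genes be set side by side. Nuclear protein-coding genes took 14.1% and 14.4% of all TPM, so a level of 1 TPM here corresponds to about 7.09 and 6.95 TPM on a scale of protein-coding genes alone.

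Most of the pathway was present in these cells. Of the 37 genes, 30 (81.1%) were at 1 TPM or more in both libraries, against 36.3% of the 21461 nuclear protein-coding genes. Together the 37 genes held 0.811% ± 0.005 (SD, n = 2) of nuclear protein-coding TPM. The levels were unequal. Aldoa, Gapdh and Tkt alone held 43.0% ± 0.9 (SD, n = 2) of the members' TPM, and the median member was at 10.5 TPM in replicate 1 and 10.4 TPM in replicate 2. Aldoa, the aldolase that splits fructose bisphosphate, ranked 79 among all nuclear protein-coding genes by mean TPM, Gapdh ranked 125, Tkt 186 and Taldo1 222. These ranks and the 43.0% count every transcript of a gene, coding or not. Over coding transcripts alone Gapdh, at 51.3 and 49.6 TPM, lay below Tkt (108.6 and 112.9 TPM) and Taldo1 (87.43 and 97.65 TPM).

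**Figure D1:**
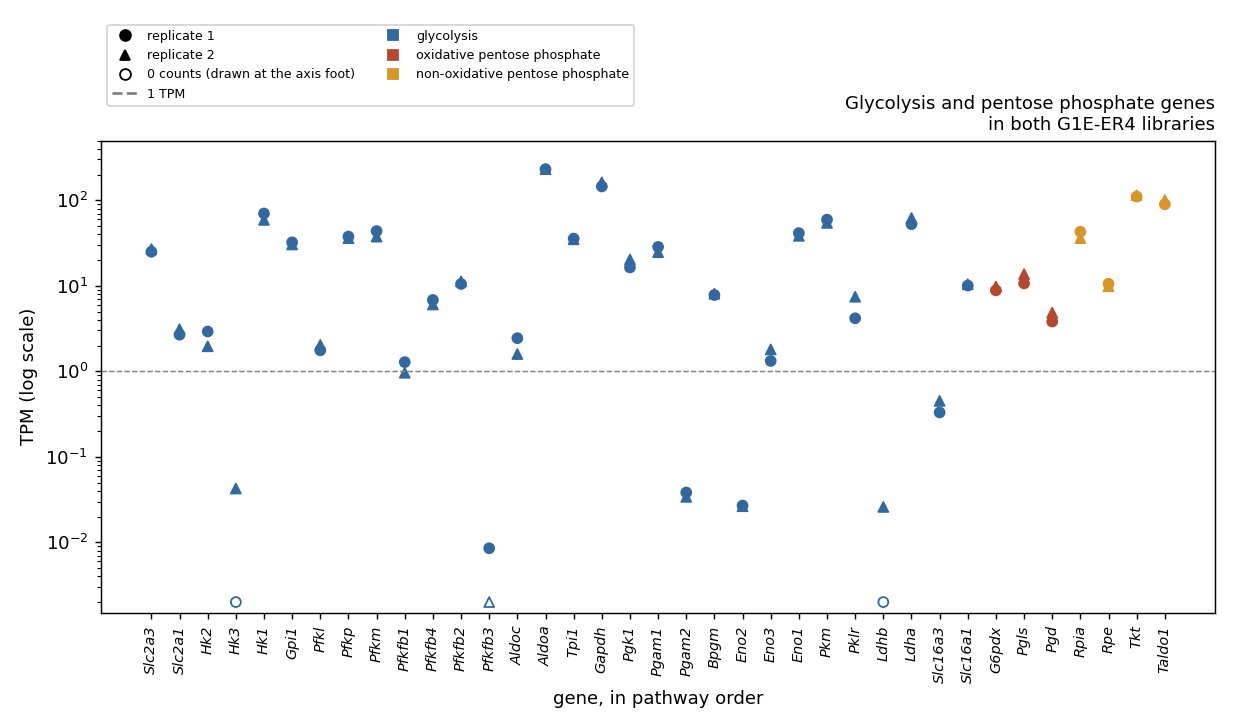
Gene-level TPM (log axis) of the 37 genes in pathway order, with a circle for replicate 1 and a triangle for replicate 2, coloured by arm of the pathway; open symbols stand for 0 counts and the dashed line for 1 TPM. Both symbols lie close together for most genes, Aldoa and Gapdh stand highest in glycolysis, and 7 genes do not reach 1 TPM in both libraries.

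Among the glucose transporter genes Slc2a3, which encodes GLUT3, had the higher mRNA level. Slc2a3 was at 25.01 and 26.85 TPM, and Slc2a1, which encodes GLUT1, was at 2.68 and 3.10 TPM. Slc2a3 therefore held 90.3% and 89.6% of the TPM of glucose transport. The genes for lactate and pyruvate transport were also unequal. Slc16a1, encoding the monocarboxylate transporter MCT1, was at 10.1 and 10.4 TPM, whereas Slc16a3, encoding MCT4, was at 0.33 and 0.45 TPM on 58 and 76 counts. Bsg, the chaperone that carries both transporters to the cell surface, was at 20.8 and 22.5 TPM.

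Hexokinase, which traps glucose as its phosphate, was represented at the mRNA level mainly by Hk1, at 70.1 and 58.9 TPM. Hk2, the form induced in many growing cells, was at 2.92 and 1.96 TPM. Hk3 had 0 counts in replicate 1, where a count of 0 allows up to 3, and 12 counts in replicate 2. The 8 myeloid markers (Hk3 is known from myeloid cells) summed to 0.138 TPM in replicate 1 and 1.57 TPM in replicate 2, 7 of 8 of them higher in replicate 2. Other lists rose too: neuron from 0.004 to 0.221 TPM, skeletal muscle from 0 to 0.069 and hepatocyte from 0 to 0.027. How far the Hk3 value goes with any of these lists was not tested. Gpi1, the isomerase that turns glucose phosphate into fructose phosphate, was at 32.2 and 30.4 TPM.

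Phosphofructokinase, the main control point of glycolysis, was the step where 2 genes were most nearly level. Pfkm, the muscle-type subunit, was at 43.7 and 37.6 TPM, and Pfkp, the platelet-type subunit, was at 37.6 and 36.0 TPM. The lead of Pfkm was a log2 ratio of 0.14 ± 0.11 (SD, n = 2), with 52.6% and 49.7% of the step's TPM against 45.3% and 47.6% for Pfkp. Pfkl, the liver-type subunit, which together with the muscle type makes up the enzyme of mature human red cells, was at 1.76 and 2.03 TPM. Pfkm exceeded Pfkl by a log2 ratio of 4.42 ± 0.30 (SD, n = 2).

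The near tie of Pfkm and Pfkp depended on which transcripts were counted. All of the Pfkm TPM lay on protein-coding transcripts, and 65.9% and 60.9% of the Pfkp TPM did. Over coding transcripts alone, an alternative chosen after the data were seen, Pfkm was 1.74-fold ± 0.03 (SD, n = 2) above Pfkp. The 3′ neighbour Pitrm1, on the opposite strand, overlaps exons of Pfkp and had 45044 and 28123 counts, more than the 20170 and 12852 of Pfkp itself. Whether the counting used strand is not given in the sources used here, and the part of this overlap in the Pfkp level was not tested.

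The PFKFB genes encode enzymes that make and remove fructose 2,6-bisphosphate, a strong activator of phosphofructokinase. Pfkfb2 was at 10.5 and 11.3 TPM and Pfkfb4 at 6.83 and 6.05 TPM. Pfkfb1 stood at 1.28 and 0.96 TPM, just either side of the 1 TPM line. Pfkfb3, the member best known for driving glycolysis in tumour and endothelial cells, had 1 count in replicate 1 and 0 in replicate 2. The lead of Pfkfb2 over Pfkfb4 was a log2 ratio of 0.76 ± 0.19 (SD, n = 2) over whole genes. It was lost over coding transcripts alone, where Pfkfb2 was at 6.00 and 6.86 TPM and Pfkfb4 at 6.83 and 6.05 TPM, so that each gene was the higher in 1 library. Pfkfb2 had 13.6% and 12.7% of its TPM on Pfkfb2-205 and 17.5% and 16.8% on Pfkfb2-206, both annotated as targets of nonsense-mediated decay.

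From aldolase to phosphoglycerate kinase the levels were uneven from step to step. Aldoa was at 231.0 and 231.2 TPM, and its isoenzyme gene Aldoc was at 2.44 and 1.59 TPM. Tpi1, the triose phosphate isomerase, was at 35.6 and 34.9 TPM, a log2 ratio of 2.71 ± 0.02 (SD, n = 2) below Aldoa. Gapdh, the dehydrogenase that makes NADH, was at 145.2 and 161.9 TPM. Pgk1, which makes the first ATP of the pathway, was at 16.4 and 20.3 TPM. The log2 ratio of Pgk1 to Gapdh was -3.07 ± 0.11 (SD, n = 2) over whole genes. Over coding transcripts alone Gapdh was 2.81-fold ± 0.48 (SD, n = 2) above Pgk1, a log2 ratio of 1.48 ± 0.25.

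Pgam1, the phosphoglycerate mutase, was at 28.5 and 24.7 TPM. Pgam2, its muscle counterpart, had 5 and 3 counts. Pgam1 was 745-fold above Pgam2 in replicate 1 (95% exact Poisson interval of the Pgam2 count, 319 to 2296) and 727-fold above it in replicate 2 (249 to 3526). These intervals cover counting error only. Bpgm, which makes the bisphosphoglycerate of the red cell, was at 7.80 and 8.07 TPM. Pgam1 exceeded Bpgm by a log2 ratio of 1.74 ± 0.18 (SD, n = 2), and the Bpgm step ranked last but 1 of all 22 steps by summed TPM.

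Eno1, the ubiquitous enolase, was at 41.3 and 38.4 TPM, while the muscle gene Eno3 was at 1.32 and 1.80 TPM and the neuronal gene Eno2 had 10 and 9 counts. Ldha, which regenerates NAD by reducing pyruvate, was at 52.6 and 62.0 TPM. Ldhb, the heart-type subunit, had 0 counts in replicate 1 and 4 counts in replicate 2. Ldha was thus at least 2693-fold higher than Ldhb in replicate 1, against a floor of 3 counts in that library, and 2390-fold higher in replicate 2 (95% exact Poisson interval of the Ldhb count, 934 to 8773).

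In all 10 steps with several genes the highest gene led by a ratio of the same sign in both libraries and larger than its SD. In 6 of them it held 90% or more of the TPM in both libraries. These were Hk1, Aldoa, Pgam1, Eno1, Ldha and Slc16a1. Slc2a3 and Pkm lay on both sides of that line, with Pkm at 93.4% and 88.0%. The enolase share counts only the 3 listed genes. It leaves out the copy Eno1b, annotated as protein-coding and at 20.1 and 19.2 TPM, so Eno1 is not nearly the only enolase mRNA. Pfkm and Pfkfb2 were the leaders with the smallest shares. The leader of each step was picked by the mean of these same values, so leading in all 10 steps is a description and no support. Over coding transcripts alone Pfkfb2 lost its lead, as given above.

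**Figure D2:**
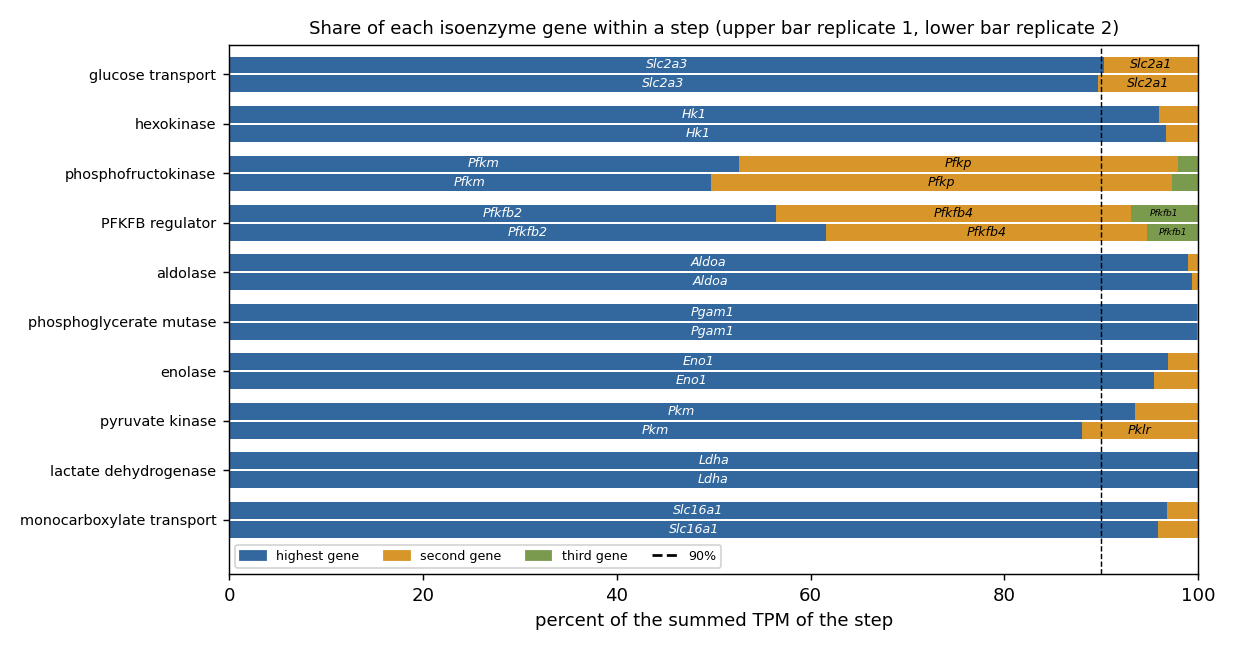
Percent of the summed TPM of each step held by each gene, for the 10 steps with more than 1 gene; the upper bar of a pair is replicate 1, the lower replicate 2, colours give the order of the genes by mean and the dashed line is 90%. A single gene fills nearly the whole bar except for phosphofructokinase, where Pfkm and Pfkp share it, and the PFKFB regulators. Only listed genes are drawn, so the enolase bar leaves out Eno1b.

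Pyruvate kinase makes the last ATP of glycolysis, and its genes each give more than 1 form. Pkm, at chr9:59656368-59679375 on the plus strand (mm10), carries a pair of mutually exclusive exons. The upstream exon gives PKM1, the constitutively active enzyme of muscle and brain, and the downstream exon gives PKM2, which is found in proliferating cells and can be switched off allosterically. Both exons are 167 bases long, and each is exon 9 of 11 in its transcript. The M1 exon lies at chr9:59675029-59675195 and the M2 exon at chr9:59675568-59675734. They are shown because these exons define the forms. Which reads set the balance between the forms was not checked. Capitals mark the 64 positions at which the exons differ.
Pkm M1 exon: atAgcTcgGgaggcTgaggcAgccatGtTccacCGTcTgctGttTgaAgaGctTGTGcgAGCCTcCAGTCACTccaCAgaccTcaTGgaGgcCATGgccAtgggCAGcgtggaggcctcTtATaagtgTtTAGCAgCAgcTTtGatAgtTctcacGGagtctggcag
Pkm M2 exon: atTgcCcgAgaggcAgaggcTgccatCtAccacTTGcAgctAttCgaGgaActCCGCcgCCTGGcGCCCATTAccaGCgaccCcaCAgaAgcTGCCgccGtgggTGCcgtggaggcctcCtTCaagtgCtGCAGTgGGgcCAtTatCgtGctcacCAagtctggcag
The exons shared 103 of 167 bases (61.7%), and the differences are spread along the whole exon.

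Both forms were present, with the M2 form ahead. The transcript with the M2 exon, Pkm-201, was at 37.1 and 40.0 TPM on 16962 and 12576 expected counts. The transcript with the M1 exon, Pkm-202, was at 22.3 and 14.4 TPM on 10192 and 4542 expected counts. The M2 form therefore made up 62.5% of Pkm in replicate 1 and 73.5% in replicate 2, a mean of 68.0% ± 7.8 (SD, n = 2). The deposited 95% credible intervals of the M1 form, 21.1 to 23.4 TPM in replicate 1 and 12.98 to 15.50 TPM in replicate 2, did not overlap. Whole-gene Pkm differed little, at 59.4 and 54.4 TPM, so the difference between the libraries lay more in the split between forms than in the gene. Both transcripts have 2432 bases in the deposited tables, and Pkm-202 has 2041 in the annotation used here for exon positions.

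Pklr encodes the pyruvate kinase of red cells and liver, from 2 promoters: the upstream start gives the red cell (R) form and the downstream start the liver (L) form. The gene lies at chr3:89136142-89146784 on the plus strand. Pklr-201, the transcript from the upstream start, was at 1.07 and 2.00 TPM on 566 and 730 expected counts. Pklr-202, from the downstream start, was at 0.86 and 0.49 TPM on 474 and 187 expected counts. The R transcript made up 55.4% of the pair in replicate 1 and 80.3% in replicate 2, a mean of 67.9% ± 17.6 (SD, n = 2). It was the higher of the pair in both libraries, with a spread nearly as wide as its distance from an even split.
The letters upstream of each start, from RefSeq (GRCm38.p6), are given because these starts separate the forms; the upstream one is chr3:89135892-89136141 and the downstream one chr3:89136373-89136571, which stops before the first annotated exon base. Capitals mark the GATA motif AGATAA or TGATAA and the KLF box CCACCC, searched on both strands.
Pklr R start: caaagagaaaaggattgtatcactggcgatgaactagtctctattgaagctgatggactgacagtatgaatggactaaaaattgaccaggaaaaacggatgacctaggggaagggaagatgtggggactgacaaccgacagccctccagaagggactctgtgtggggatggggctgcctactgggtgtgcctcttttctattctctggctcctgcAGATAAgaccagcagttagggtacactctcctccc
Pklr L start: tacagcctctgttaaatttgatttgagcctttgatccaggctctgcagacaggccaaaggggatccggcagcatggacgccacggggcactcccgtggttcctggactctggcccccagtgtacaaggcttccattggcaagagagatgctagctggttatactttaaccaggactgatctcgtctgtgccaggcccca
The upstream window held 1 GATA motif, which begins 35 bases before the start, and the downstream window held none. Neither window held the KLF box in these letters.

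The gene-level TPM of Pklr, 4.17 and 7.44, rested largely on another transcript. Pklr-205, annotated as a processed transcript with no coding sequence, has 345 bases and took 2.25 and 4.95 TPM on only 67 and 91 expected counts. Coding transcripts held 94.0% and 90.9% of the Pklr counts but 46.2% and 33.5% of its TPM. Over coding transcripts Pkm was 26.3-fold ± 6.3 (SD, n = 2) above Pklr, compared with 14.2-fold and 7.31-fold over whole genes in replicates 1 and 2. On counts scaled between the libraries Pklr was higher in replicate 2 by 0.43 on the log2 scale, and on TPM by 0.84.

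Gapdh was the other member at 1 TPM or more with under 50% of its TPM on coding transcripts in both libraries. That made 2 of 30 such members, against 8.5% of all 7781 nuclear protein-coding genes at that level. Gapdh lies at chr6:125161715-125166467 on the minus strand. Its coding transcript Gapdh-203 was at 24.0 and 22.1 TPM. Gapdh-202 was at 26.1 and 26.2 TPM and Gapdh-201, of 1272 against 1273 bases and with the same start, at 0.03 and 0.73 TPM. The split between Gapdh-202 and Gapdh-201 was unresolved, since the deposited 95% credible intervals of Gapdh-202 (5.33 to 23.4 TPM and 0.201 to 21.1 TPM) exclude its own printed values. Gapdh-206, a retained-intron transcript of 565 bases at the 3′ end of the gene, was at 61.5 and 74.1 TPM, and Gapdh-208, a processed transcript of 483 bases, was at 29.99 and 35.39 TPM. All coding transcripts together came to 51.3 and 49.6 TPM, 35.4% and 30.6% of the gene's TPM and 61.2% and 57.0% of its counts. On that scale Tkt, at 108.6 and 112.9 TPM, was 2.20-fold ± 0.11 (SD, n = 2) above Gapdh, whereas over whole genes Gapdh was 1.36-fold ± 0.07 (SD, n = 2) above Tkt.

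Hk1, at chr10:62268855-62379908 on the minus strand, used several starts. Hk1-201, starting at position 62358362, held 44.1% and 40.9% of the Hk1 counts. Hk1-202, starting at 62340542, held 30.03% and 35.0%, and Hk1-205, starting at 62342722, held 18.7% and 16.1%. Hk1-212, a coding fragment of 896 bases, held 6.61% and 7.20% of the counts but 25.9% and 28.4% of the TPM. All 4 are annotated as coding, and coding transcripts held 99.4% and 99.3% of the TPM of Hk1.

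Of the 31 members with a mean count of at least 100, 28 have 2 or more transcripts in the tables. In 26 of these the transcript with the highest mean TPM led in both libraries, and in 13 it held 90% or more of the gene's TPM in both. The same counts were not made over all genes, so they describe the members only. Aldoa-201 held 95.4% and 94.9%, Ldha-202 held 96.8% and 96.0%, Pgk1-201 held 99.4% and 99.1% and Eno1-202 held 96.5% and 95.6%. Bpgm-201 held 97.3% and 93.9% and G6pdx-201 held 96.7% and 94.8%. Pfkfb4, Slc16a1 and Pgam1 have a single transcript in the tables, and Pfkfb3 had too few counts to compare. Eno3 and Pfkfb1 were the exceptions to a shared leader. Eno3-201 held 90.2% of the Eno3 TPM in replicate 1 and 20.6% in replicate 2, on 305 and 66 expected counts, while Eno3-206 had 0 in replicate 1 and 143 in replicate 2.

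**Figure D3:**
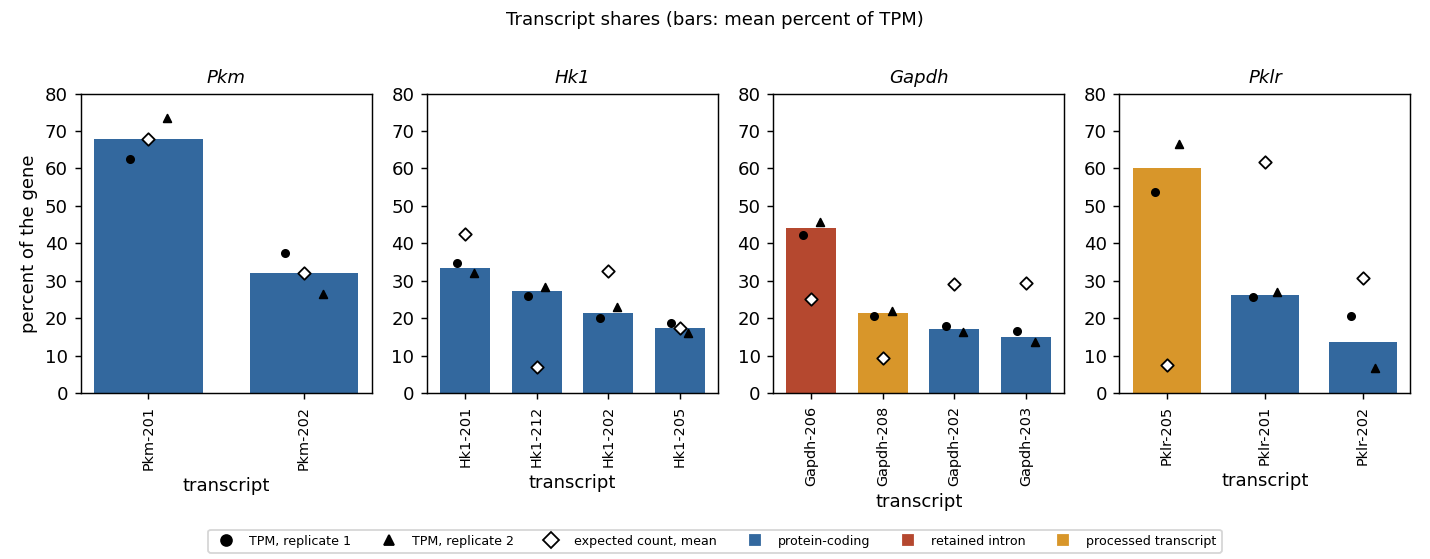
Percent of each gene's TPM held by each transcript of Pkm, Hk1, Gapdh and Pklr (bars, mean of 2 libraries; circles replicate 1, triangles replicate 2) and mean percent of the gene's expected counts (white diamonds), coloured by annotated transcript type. In Pkm the bars and diamonds coincide, while the short transcripts Hk1-212, Gapdh-206, Gapdh-208 and Pklr-205 hold more of the TPM than of the counts.

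The pentose phosphate genes held 24.5% ± 0.5 (SD, n = 2) of the members' TPM, and nearly all of this lay in the non-oxidative arm. G6pdx, the glucose phosphate dehydrogenase that opens the pathway and makes its first NADPH, was at 8.84 and 9.79 TPM. Pgls, the lactonase, was at 10.7 and 13.7 TPM. Pgd, the second NADPH-producing dehydrogenase, was at 3.82 and 4.84 TPM, which put it last among the 22 steps. All 3 oxidative genes thus lay below 14 TPM in both libraries.

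The non-oxidative genes stood higher. Tkt, the transketolase that moves carbon pairs between sugars, was at 110.5 and 114.5 TPM, and Taldo1, the transaldolase, was at 89.9 and 100.6 TPM. Rpia, which makes ribose phosphate, was at 43.0 and 36.1 TPM, and Rpe, the epimerase beside it, at 10.6 and 9.88 TPM. Tkt exceeded G6pdx by a log2 ratio of 3.60 ± 0.07 (SD, n = 2), and Rpia exceeded Rpe by 1.95 ± 0.11 (SD, n = 2). Per gene, mean TPM in the non-oxidative arm was 7.54-fold ± 0.88 (SD, n = 2) that of the oxidative arm. The ranges of the arms met only at Rpe, which lay within the range of the oxidative genes.

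Several neighbours in the order of steps could not be separated. By summed TPM the order began with aldolase, GAPDH, transketolase, transaldolase and phosphofructokinase, each above the next by more than the spread of the ratio. The second place of GAPDH rested on its non-coding transcripts, and over coding transcripts alone that step ranked 8, at 51.3 and 49.6 TPM, below transketolase, transaldolase, hexokinase, phosphofructokinase, pyruvate kinase and lactate dehydrogenase. Over whole genes, hexokinase (73.1 and 60.9 TPM), pyruvate kinase (63.5 and 61.8 TPM) and lactate dehydrogenase (52.6 and 62.0 TPM) were neighbours whose ratios did not exceed their spread. The same held for enolase beside Rpia, Rpia beside Tpi1, Gpi1 beside glucose transport and glucose transport beside phosphoglycerate mutase. Steps that were not next to each other in the order were not compared.

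Some members have near-identical copies elsewhere in the genome, among which reads are hard to assign. Alignment of each member's main coding transcript to the transcripts of other genes, at 95% identity or more over at least 200 bases, found such copies for 8 members. For 3 of them the copies held 5% or more of the member's own counts in both libraries. The share of all genes with such copies was not determined. Eno1b, an enolase gene copy annotated as protein-coding with 99.5% identity to Eno1, had 6408 and 4204 expected counts and 20.1 and 19.2 TPM. Eno1 exceeded it by 2.03-fold ± 0.04 (SD, n = 2). The copy Pgk1-rs7 had 1278 and 974 expected counts, against 5439 and 4607 for Pgk1, counted apart from it and equal to 23.5% and 21.2% of its count.

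Gapdh had 71 such copies, 55 of them with reads, and together they held 1793 and 1240 expected counts of their own, which compares with the Gapdh count as 9.28% and 9.03%. That ratio was similar in both libraries, while single copies differed. Gm12671, identical to Gapdh over 1002 bases, had 1352 expected counts in replicate 1 and 0.16 in replicate 2. Gm7336, 99.8% identical over 1232 bases, had 5.11 in replicate 1 and 1032 in replicate 2. How far read assignment to the copies moved the levels of Gapdh, Pgk1 and Eno1 was not tested. Overlapping genes touched exons of 16 members, on the opposite strand in 14, and the share over all genes was not determined. Beside Pitrm1 the overlapping genes included Senp1 with Pfkm (9.36 and 9.73 TPM), Yod1 with Pfkfb2 (6.70 and 7.22 TPM) and Ikbkg with G6pdx (9.03 and 9.60 TPM).

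Of 52 further genes of carbohydrate metabolism listed for comparison, 17 were at 1 TPM or more in both libraries and 12 had 0 counts in both. The highest were Txnip, an inhibitor of glucose uptake, at 83.7 and 75.2 TPM, and Hif1a, the oxygen-regulated activator of glycolytic genes, at 34.1 and 32.4 TPM. Among the enzymes, Minpp1, which can break down bisphosphoglycerate, was at 14.7 and 16.5 TPM. Pgm2l1, which makes glucose bisphosphate, was at 14.5 and 14.6 TPM, and Khk, the fructokinase, at 13.5 and 10.3 TPM. The phosphoglucomutase genes Pgm2 and Pgm1 were at 10.6 and 12.5 TPM and at 2.64 and 2.06 TPM. The remaining 9 at this level, beside Bsg, were Mlx, Ugp2, Adpgk, Gpd2, Shpk, Rbks, Pck2, Gpd1l and Mlxip, with means of 1.27 to 7.17 TPM. H6pd, the dehydrogenase of the endoplasmic reticulum that parallels G6pdx, had 25 and 26 counts, and Tigar, a phosphatase that slows glycolysis, had 171 and 53.

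Differences between the replicates were small for these genes, as for most genes tested. On counts scaled by TMM factors (which set library sizes from genes that change little), the replicates differed 2-fold or more in 0 of the 31 members that averaged 100 counts or more, against 2.03% of 9722 genes tested. At 1.5-fold it was also 0 of 31 on these scaled counts, against 7.8% of all genes, while on the ratio of deposited TPM, a setting chosen after the data were seen, 2 members (Pklr and Aldoc) passed 1.5-fold, against 8.96% of all genes. With 1 library on each side these are folds without a test. Among 31 members, counts this low do not set them apart from all genes. The median log2 difference, replicate 2 minus replicate 1, was 0.06 over the members and -0.01 over all genes. The members farthest apart were Aldoc at -0.49, Hk2 at -0.44, Pklr at 0.43, Pgls at 0.35 and Pgk1 at 0.33.

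Small differences nevertheless exceeded the uncertainty within a library. The deposited 95% credible intervals of TPM, which cover counting and read assignment and not the spread between cultures, did not overlap in 21 of 31 members (67.7%), against 46.4% of all genes tested. Of these, 11 were higher in replicate 2 (35.5% of members, against 19.7% of all genes) and 10 were higher in replicate 1 (32.3%, against 26.6%). Such intervals are relatively narrower at higher counts, and the genes were not matched for count. At 1 TPM or more in both libraries, median TPM was 20.7 and 22.5 for members. It was 6.44 and 6.38 for nuclear protein-coding genes at that level. The part of count level in the excess was not tested. All 3 oxidative pentose phosphate genes were among those higher in replicate 2, with log2 differences of 0.15 for G6pdx, 0.35 for Pgls and 0.30 for Pgd. Ldha, Pgk1, Slc2a1, Slc2a3, Gapdh, Tkt, Taldo1 and Pklr were the others on that side. For Gapdh this held over the whole gene only, as its coding transcripts came to 51.3 TPM in replicate 1 and 49.6 TPM in replicate 2. Hk1, Hk2, Pfkm, Pfkfb4, Aldoc, Pgam1, Eno1, Pkm, Gpi1 and Rpia were higher in replicate 1.

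Marker lists differed between the libraries as well. All 8 genes of dividing cells were higher in replicate 2, with summed TPM of 165 and 283 and a median log2 difference of 0.83. Of the 12 erythroid genes 10 were higher in replicate 2, with a median of 0.29. Of 14 hypoxia-inducible genes outside the members, 8 had a mean count of at least 100, and their median log2 difference was -0.03. The myeloid markers, low in both libraries, were given above beside Hk3. More genes had reads in replicate 2, 19353 against 16115, although its total was the smaller. The part of these differences in the member differences was not tested.

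**Figure D4:**
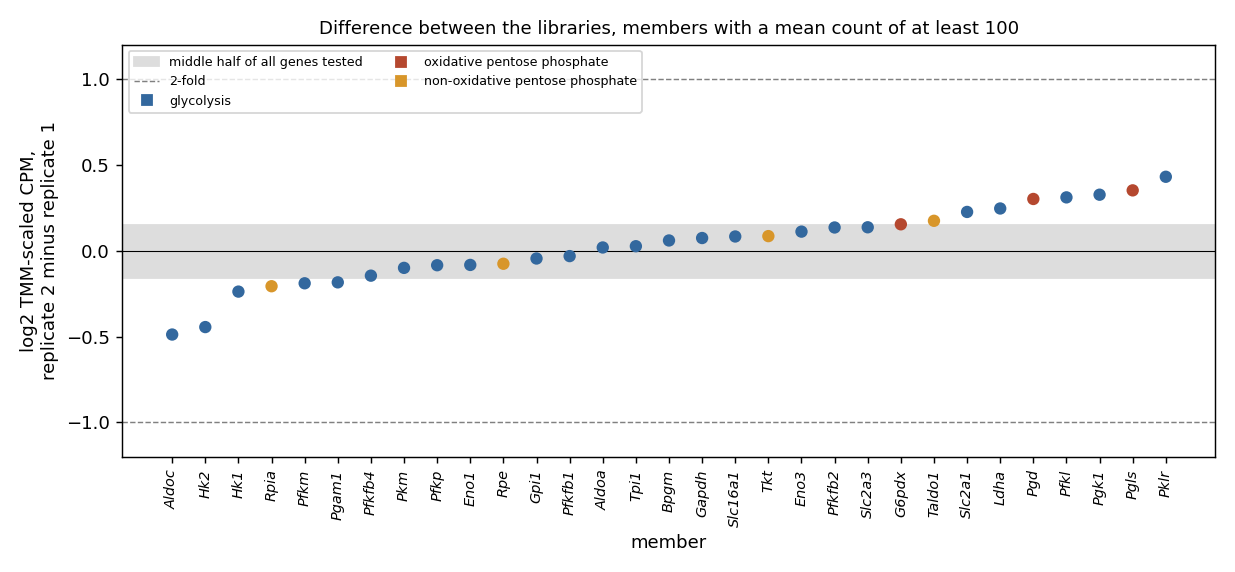
Log2 difference of TMM-scaled CPM, replicate 2 minus replicate 1, for the 31 members with a mean count of at least 100, sorted and coloured by arm of the pathway; the grey band spans the first to the third quartile of all 9722 genes and dashed lines mark 2-fold. All points lie between -0.49 (Aldoc) and 0.43 (Pklr).

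Promoter letters were available for 36 members in RefSeq (GRCm38.p6), as 55 windows of 250 bases before and 50 after a start. Slc2a3 had no window. Each motif was searched on both strands. The core of the hypoxia response element, ACGTG, occurred in 21 of 55 member windows (38.2%) and in 19.6% of all 32851 windows. The GC box GGGCGG occurred in 54.5% and 35.7%, the KLF box CCACCC in 41.8% and 31.5%, and CCAAT in 40.0% and 37.4%. The GATA motif, AGATAA or TGATAA, occurred in 12 windows of 9 genes (21.8%, against 18.6% of all windows). Those genes were Aldoa, Eno3, Pfkfb1, Pfkfb2, Pfkfb4, Pfkm, Pklr, Pkm and Slc16a1, which range from the highest member to some of the lowest. A gene in this list need not carry the motif at its main start. In Aldoa it lay only in the window at the start of Aldoa-203, a minor transcript. The window at the start of Aldoa-201, which held 95.4% and 94.9% of the Aldoa TPM, had no GATA motif. The E-box CACGTG, every copy of which contains the hypoxia core, occurred in 9.09% of member windows and 7.15% of all. Windows of the same gene can overlap, as in Aldoa, Eno1 and Pfkm, so a site can count more than once. These are counts of letters in a window and no measure of binding.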

How the data were processed

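Total RNA-seq was deposited for 2 libraries of 1 group, and no test was made. Per the labels, 100 ng of rRNA-depleted RNA went into each ScriptSeq library, and values refer to mm10. Per the file headers the authors' tables give expected counts, TPM, FPKM and, for transcripts, the percent of the gene held by each isoform, with posterior mean TPM and credible bounds for TPM and FPKM. Aligner, quantifier and use of strand are not given in the sources used here. Gene models follow GENCODE M4 per the deposited lists. Gene names, types, exons and positions came from GENCODE M21 (GRCm38), matched on identifiers without version for 42462 of 43346 gene rows and all 244 member transcripts, 14 of which differ in length. The 26248 numbered rows that name no gene held under 0.0001% of counts and were left out.

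Deposited values under 0.1 TPM were recomputed from count and effective length. Counts were scaled with edgeR 4.0.16 (TMM, prior count 0.5), with DESeq2 1.42.0 size factors as an alternative. The ratio step was checked on simulated Poisson counts without culture spread. That check covers scaling and direction only, and not the spread between these libraries. Copies were found with blastn 2.17.0. A chi-square of 75.8 per degree of freedom over 12223 genes separated the libraries, so they were kept as 2 samples. Nothing in the labels beyond the word biological says how the cultures were separated. The members and lists were chosen with earlier results of these data known. Named genes are all 37 members, comparison genes at 1 TPM in both libraries, the 5 largest replicate differences, and leading transcripts of preset genes; Pfkp, Pfkfb2 and Eno3 transcripts, single copies, overlaps, H6pd and Tigar were chosen after their values were seen. Mean ± SD is over 2 libraries.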

Additional observations from a re-analysis of the deposited data

How the results depend on the processing

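Apart from leaving out a replicate, 35 of 43 recomputed values stayed within 1.5 times of a count or within 1 SD of a value (for the median replicate difference, the typical gene's spread). Some of the 43 could not move, so the tally is no measure of stability. FPKM is proportional to TPM within a library, which fixes shares and ratios. Both Pkm forms have the same deposited length, which fixes the M2 share from counts. With 2 libraries, leaving 1 out returns the other's value, which for a mean is no check of stability. The members' share of nuclear protein-coding TPM, 0.811%, was 0.866% from expected counts not divided by length, 0.826% over protein-coding transcripts, 0.827% without globin genes and 0.115% with all rows as denominator. The pentose phosphate share, 24.5%, was 27.8% from expected counts and 27.2% over coding transcripts. Without a filter beyond 1 count in a library, 3 members (Hk3, Ldhb and Pfkfb3) passed 2-fold, against 40.5% of all genes, and 2 members passed 1.5-fold on deposited TPM. The coding-transcript alternative was chosen after the data were seen; it left 9 of 10 steps led, losing Pfkfb2. The M2 share of Pkm ranged from 62.5% to 73.5% and the pentose phosphate share from 24.1% to 24.9% with 1 replicate left out. Replicate differences need both libraries, so no replicate could be left out there. No paired analysis was possible because there is 1 group. Hk3, Pfkfb3, Pgam2, Eno2 and Ldhb had at most 12 counts in a library, so their levels carry wide counting error; Hk3 and Ldhb had 0 counts in the deeper library.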
